A study of Homo sapiens with 9 samples.

Results

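CYP51A1 (ENSG00000001630) and CYP26B1 (ENSG00000003137) are the 2 cytochrome P450 genes among the 49 genes whose read counts were analysed in HK-2 cells, an immortalized line derived from the human proximal tubule. They were chosen as members of this gene family, with earlier results of these data known. RNA-seq was done on 9 libraries in 3 groups of 3. All groups carry a lentiviral shRNA with a green fluorescent protein marker. The shCtrl-Normal group carries the scrambled control shRNA and, by its title, no advanced glycation end products (AGEs), which are proteins and lipids modified by sugars. The shCtrl-AGEs group carries the same control shRNA and received AGEs at 400 μg/ml over 72 h. The shJMJD1A-AGE group carries an shRNA against JMJD1A (gene KDM3A), a demethylase of histone H3K9, and received the same AGEs dose. The treatment text is identical on all samples, so the untreated state of shCtrl-Normal rests on its title. A single shRNA sequence against JMJD1A was used, and it is not stated that replicates are separate cultures. The p-values therefore measure only the spread between these libraries, which the edgeR test pools over genes. KDM3A itself was not analysed here, so the knockdown was not checked in these counts, and 0 of the 18 proximal tubule markers listed for this check were among the 49 genes.

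Cytochrome P450 enzymes are heme proteins of the endoplasmic reticulum and mitochondria that insert oxygen into lipids, hormones and drugs. CYP51A1 encodes lanosterol demethylase, which removes a methyl group from lanosterol on the way to cholesterol, and its gene is driven, like other genes of the pathway, by the sterol-sensing factor SREBP-2. CYP26B1 encodes a retinoic acid hydroxylase, which clears retinoic acid from cells and so limits signalling through the retinoic acid receptors. The enzymes thus stand in different pathways, one of synthesis and the other of breakdown.

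CYP51A1 lies on the minus strand of chromosome 7 of GRCh38 from 92084987 to 92134803, and its canonical transcript has 10 exons and 3155 bases (GENCODE release 44). CYP26B1 lies on the minus strand of chromosome 2 from 72129238 to 72147862, with 6 exons and 4556 bases in the canonical transcript. The stretches upstream of both start sites are shown as a description. They hold, or lack, short motifs of factors known to act on sterol and retinoic acid genes. Both are RefSeq sequences of GRCh38.p14, minus strand, 5′ to 3′, with exons of the gene left out and motif matches in capitals.
CYP51A1, chr7:92134504-92134665, from 188 to 27 bases upstream: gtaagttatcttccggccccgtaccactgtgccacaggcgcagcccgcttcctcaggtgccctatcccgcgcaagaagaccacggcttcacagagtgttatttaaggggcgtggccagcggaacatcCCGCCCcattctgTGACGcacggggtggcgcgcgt
CYP26B1, chr2:72147863-72148112, from 250 to 1 bases upstream: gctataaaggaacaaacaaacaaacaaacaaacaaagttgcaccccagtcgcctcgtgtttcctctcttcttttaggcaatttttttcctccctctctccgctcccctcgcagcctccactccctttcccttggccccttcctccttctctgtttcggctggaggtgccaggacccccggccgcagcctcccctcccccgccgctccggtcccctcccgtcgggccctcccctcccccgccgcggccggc
The capitals in the CYP51A1 stretch mark a GC box (CCGCCC, bound by Sp1 factors) that starts 61 bases upstream and the core of the cyclic AMP response element (TGACG) that starts 48 bases upstream. They do not overlap. Searched on both strands of 35116 RefSeq promoter windows of the same length, the GC box was present in 45.0% and TGACG in 24.6%. The windows hold 250 bases before and 50 after the start. The CCAAT box of the factor NF-Y (CCAAT, in 34.6% of windows) was absent from the CYP51A1 window and present once in that of CYP26B1, 5 bases downstream of the start. The element AGGTCA of nuclear receptors, among them those for retinoic acid (in 13.8% of windows), matched neither window. No match says only that these letters are not in these windows. A binding site of SREBP-2 was not searched for. Whether the motifs bear on the response to JMJD1A silencing was not tested.

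CYP51A1 was lowest in the shJMJD1A-AGE group. The shCtrl-Normal libraries had 481, 473 and 534 CYP51A1 reads, the shCtrl-AGEs libraries 554, 464 and 455, and the shJMJD1A-AGE libraries 225, 104 and 157. All 3 silenced libraries were below each of the other 6. After TMM scaling over the 9 libraries the mean normalised read count was 437.6 ± 26.5 (SD, n = 3) in shCtrl-Normal, 505.7 ± 34.0 (SD, n = 3) in shCtrl-AGEs and 179.6 ± 64.0 (SD, n = 3) in shJMJD1A-AGE. In bulk RNA a lower level in each cell and fewer cells that express the gene cannot be told apart.

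CYP26B1 had a different order of the groups. There were 60, 94 and 86 CYP26B1 reads in the shCtrl-Normal libraries, 82, 84 and 72 in shCtrl-AGEs, and 78, 80 and 136 in shJMJD1A-AGE. The mean normalised read count was 70.7 ± 16.5 (SD, n = 3) in shCtrl-Normal, 81.9 ± 6.53 (SD, n = 3) in shCtrl-AGEs and 107.8 ± 25.6 (SD, n = 3) in shJMJD1A-AGE. Neighbours in this order overlapped in their libraries, so the order of adjacent groups does not exceed their spread.

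**Figure D1:**
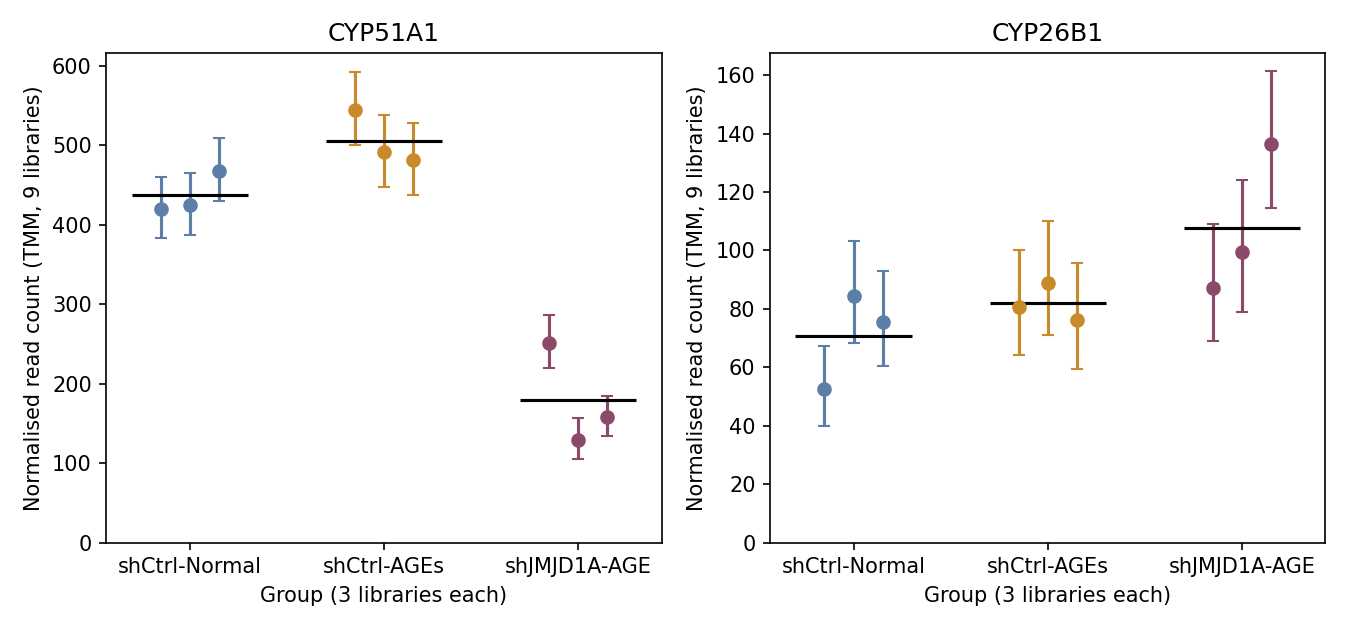
Normalised read counts (TMM over 9 libraries, linear axes from 0) of CYP51A1, left, and CYP26B1, right, in each library of the 3 groups; bars on points are exact 95% Poisson intervals, which cover counting error only, and black lines are group means. The shJMJD1A-AGE libraries of CYP51A1 sit between 129.5 and 251.7, below every other library, while those of CYP26B1 begin at 87.3, within the range of shCtrl-AGEs.

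Counting error alone was small for CYP51A1 and considerable for CYP26B1. The coefficient of variation of CYP51A1 was 6.05% in shCtrl-Normal and 6.72% in shCtrl-AGEs, near the 4.49% and 4.51% that counting gives. It was 35.6% in shJMJD1A-AGE, against 7.86% from counting. Within that group the exact 95% Poisson interval of the normalised count was 219.9 to 286.8 in replicate 1 and 105.8 to 156.9 in replicate 2, which do not overlap. For CYP26B1 the coefficient of variation in shCtrl-AGEs, 7.98%, was below the 11.2% of counting, whereas it was 23.3% in shCtrl-Normal and 23.8% in shJMJD1A-AGE. Replicate 3 of shJMJD1A-AGE was the highest for CYP26B1, at 136.5 (114.6 to 161.5), and replicate 1 of shCtrl-Normal the lowest, at 52.4 (40.0 to 67.5).

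Per kilobase of canonical transcript, the normalised count of CYP51A1 was 138.7 ± 8.40 (SD, n = 3) in shCtrl-Normal, 160.3 ± 10.8 (SD, n = 3) in shCtrl-AGEs and 56.9 ± 20.3 (SD, n = 3) in shJMJD1A-AGE. That of CYP26B1 was 15.5 ± 3.62, 18.0 ± 1.43 and 23.7 ± 5.63 (SD, n = 3 each) in the same order. On this scale of level per length CYP51A1 remained above CYP26B1 in each of the 9 libraries. The level of CYP51A1 may be understated or overstated, depending on the gene models counted and the handling of shared reads. In GENCODE release 44, 2844 of the 3155 canonical bases (90.1%) also belong to ENSG00000285772 or ENSG00000289027, readthrough genes on the same strand. Processed pseudogenes CYP51A1P1 and CYP51A1P2 match the transcript at 96.6% over 1510 aligned bases and at 97.0% over 1509. On the other strand, exons of AKAP9 and CYP51A1-AS1 share 108 and 138 bases with CYP51A1 but none with its canonical transcript. The annotation release and the handling of shared reads are not given in the sources used here. No exon of CYP26B1 was shared with another gene, and no other transcript matched it at 80% identity over at least 500 bases.

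The question of the first comparison is what AGEs do to cells that carry the control shRNA. Relative to the genes analysed, CYP51A1 rose slightly with AGEs. Its normalised counts were 420.1, 424.7 and 468.1 in shCtrl-Normal and 544.4, 491.5 and 481.0 in shCtrl-AGEs. All 3 treated libraries were higher, the nearest by 12.9. The raw reads overlapped, at 481, 473 and 534 against 554, 464 and 455. Scaling used the genes analysed alone, with relative library sizes of 1.11 to 1.14 in shCtrl-Normal and 0.944 to 1.02 in shCtrl-AGEs. A rise relative to the whole transcriptome was not tested. The log2 fold change was 0.24 (standard error 0.0888), a fold of 1.18 with a 95% interval of 1.05 to 1.34, and the adjusted p was 0.0264 (edgeR's quasi-likelihood test, Benjamini-Hochberg over 46 genes). Of all genes tested, 32.6% passed at an adjusted p under 0.05, and in 47.8% the libraries did not overlap. The fold was below the threshold of 2 used in the study. The call depended on the processing and on single libraries. It held in 7 of 15 alternatives, with adjusted p between 0.00332 and 0.446 (edgeR, DESeq2 or the exact permutation test). Of these, the permutation test cannot pass with 3 libraries a group. The call was lost without shCtrl-Normal replicate 1 (0.131), shCtrl-Normal replicate 2 (0.109) or shCtrl-AGEs replicate 1 (0.138, edgeR adjusted p in each case).

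CYP26B1 did not pass in this comparison. Its normalised counts were 52.4, 84.4 and 75.4 in shCtrl-Normal and 80.6, 89.0 and 76.1 in shCtrl-AGEs, and 1 treated library exceeded all untreated ones. The log2 fold change was 0.24 (standard error 0.214), with a 95% interval of -0.18 to 0.67, and the edgeR adjusted p was 0.412. A fold between 0.884 and 1.59 is therefore compatible with these counts. Without shCtrl-Normal replicate 1, the lowest library, the log2 fold change was 0.06 (edgeR adjusted p = 0.902). The log2 fold changes of the members were nearly the same here, and their standard errors were 0.0888 and 0.214.

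The second comparison asks what silencing of JMJD1A changes in cells under AGEs. CYP51A1 fell, with a log2 fold change of -1.52 (standard error 0.222), so that it was 2.87-fold lower (95% interval 2.01 to 4.09). Its normalised counts were 251.7, 129.5 and 157.6 after silencing, and the highest of them was 229.3 below the lowest of shCtrl-AGEs. The edgeR adjusted p was 0.000857 over 45 genes. In this comparison 42.2% of all genes passed, 9 higher and 10 lower, and 53.3% had libraries that did not overlap, so the call itself was common, while a fold of at least 2 together with the call was found in 8.89% of genes. Scaled by plain totals, 13 genes were higher and 8 lower.

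The fall of CYP51A1 did not rest on a single library. With each library left out in turn, the log2 fold change lay between -1.81 (without shJMJD1A-AGE replicate 1, the highest) and -1.33 (without shJMJD1A-AGE replicate 2, the lowest), and the edgeR adjusted p was at most 0.0287. The exact permutation test on 3 libraries against 3, whose smallest p is 0.1, cannot pass and gave that smallest value. Plain totals in place of TMM raised the median over all genes tested by 0.15 (log2 scale). Relative to the median of all genes CYP51A1 was at -1.56 and CYP26B1 at 0.33, values that a change of scaling leaves nearly the same by construction.

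CYP26B1 did not pass after silencing. Its normalised counts were 87.3, 99.6 and 136.5 in shJMJD1A-AGE, and 2 of these 3 libraries were above all shCtrl-AGEs libraries. The log2 fold change was 0.37 (standard error 0.213), with a 95% interval of -0.10 to 0.84, and the edgeR adjusted p was 0.182. Of 15 alternatives 0 passed, and the lowest adjusted p was 0.0609, without shJMJD1A-AGE replicate 1. Leaving out shJMJD1A-AGE replicate 3 reduced the log2 fold change to 0.16 (edgeR adjusted p = 0.497). A rise of up to 1.79-fold or a level down to 0.934 of that in shCtrl-AGEs lies within the interval.

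**Figure D2:**
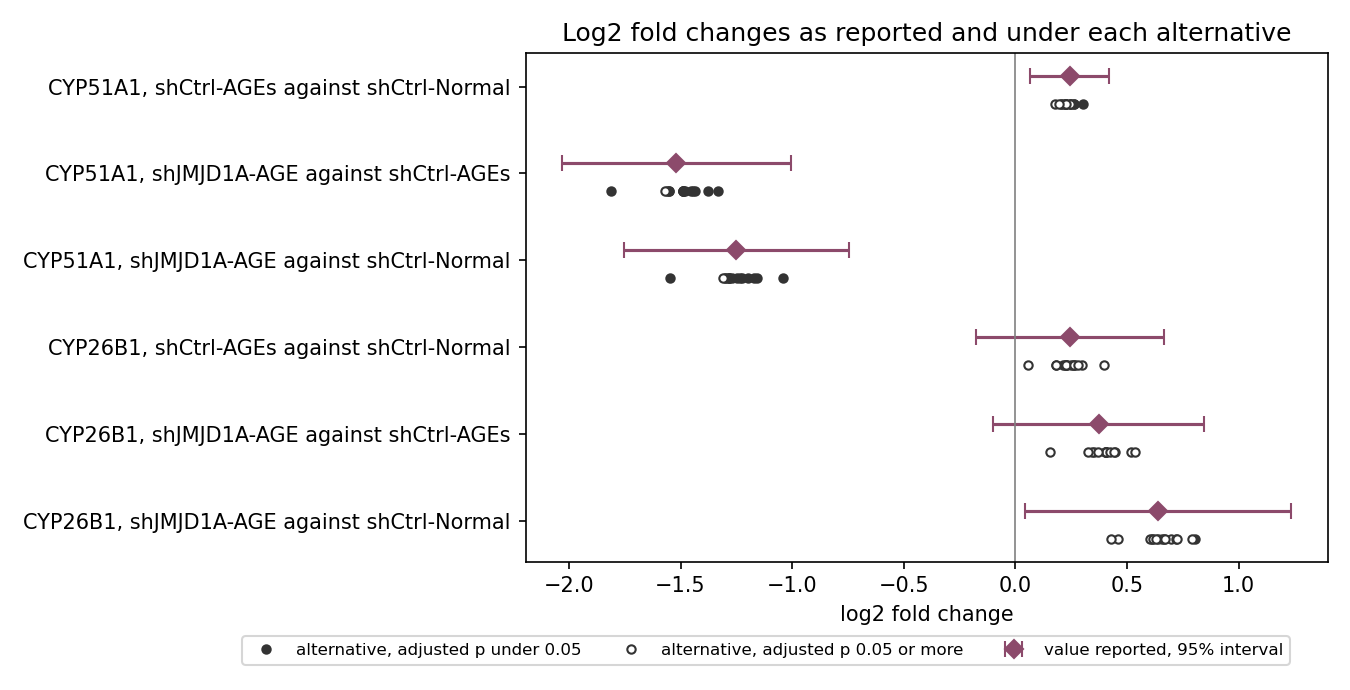
Log2 fold change (x axis) of each member in each of the 3 comparisons, with the reported edgeR value and its 95% interval (diamond) and the 15 alternatives of each result (circles, filled where the adjusted p was under 0.05). The CYP51A1 values after silencing lie between -1.81 and -1.04, left of 0, whereas the intervals of CYP26B1 include 0 in the first 2 comparisons.

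Silenced cells under AGEs were also set against untreated control cells, a comparison that shares its libraries with both others. CYP51A1 was 2.38-fold lower in shJMJD1A-AGE than in shCtrl-Normal (95% interval 1.68 to 3.37), a log2 fold change of -1.25 (standard error 0.228) with an edgeR adjusted p of 0.00128. Every silenced library was at least 168.4 normalised counts below the shCtrl-Normal libraries. CYP26B1 stood on the other side, at a log2 fold change of 0.64 (standard error 0.269), a fold of 1.56 with a 95% interval of 1.03 to 2.35, and its libraries did not overlap, although the gap between the nearest was 2.85 normalised counts. It did not pass (edgeR adjusted p = 0.0806, unadjusted p = 0.0376). All 3 groups in a single fit gave an adjusted p of 0.0411, and leaving out shJMJD1A-AGE replicate 1 gave 0.0415 (both edgeR), while the other 13 alternatives did not pass. In this comparison 40% of 45 genes passed and 55.6% had libraries that did not overlap.

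The ratio of the members' reads within a library does not depend on how libraries are scaled. There were 8.02, 5.03 and 6.21 CYP51A1 reads per CYP26B1 read in the shCtrl-Normal libraries, 6.76, 5.52 and 6.32 in shCtrl-AGEs, and 2.88, 1.30 and 1.15 in shJMJD1A-AGE. The silenced libraries were all below the others, and the control shRNA groups overlapped. The mean log2 ratio was 2.62 ± 0.15 (SD, n = 3) in shCtrl-AGEs and 0.70 ± 0.72 (SD, n = 3) in shJMJD1A-AGE, a difference of -1.92 (two-sided exact permutation p = 0.1, the smallest possible, and 0.15 adjusted over 3 comparisons). Between shCtrl-AGEs and shCtrl-Normal the difference was -0.03 (exact permutation p = 1, adjusted 1), and it changed sign when single libraries were left out. Replicate 3 of shJMJD1A-AGE, with the most CYP26B1 reads, had the lowest ratio.

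**Figure D3:**
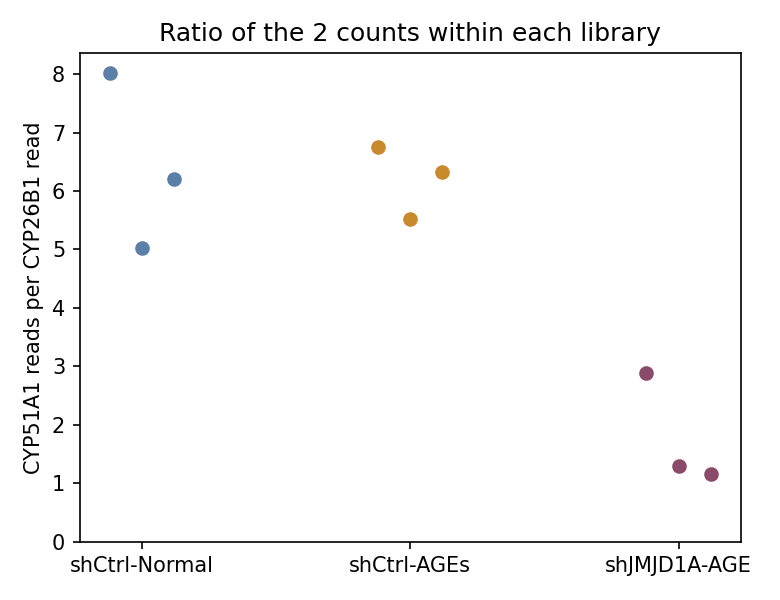
Reads of CYP51A1 per read of CYP26B1 (y axis, linear from 0) in each of the 9 libraries, by group. The 3 shJMJD1A-AGE libraries lie between 1.15 and 2.88, and the 6 control shRNA libraries between 5.03 and 8.02.

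The other genes of these pathways were hardly covered. CYP51A1 was the 1 gene of 23 in a cholesterol biosynthesis list, CYP26B1 the 1 of 19 in a retinoid metabolism list, and 0 of 12 retinoic acid receptors and cofactors were among the genes analysed. Of 13 genes of sterol sensing and SREBP partners, NFYA was present. It encodes a subunit of NF-Y, which binds CCAAT boxes and acts with SREBP at sterol genes. NFYA fell with AGEs, from 1564 ± 45.7 to 1281 ± 73.6 normalised counts (SD, n = 3 each), a log2 fold change of -0.25 (standard error 0.0639, edgeR adjusted p = 0.000627), where CYP51A1 rose by 0.24. After silencing its log2 fold change was -0.03 (standard error 0.0711, edgeR adjusted p = 0.714), with a 95% interval of -0.19 to 0.12.

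KRIT1 and ANKIB1 are the genes analysed that lie within 1000 kb of CYP51A1, 62.7 kb and 111 kb away on chromosome 7. KRIT1 encodes a junction protein that is mutated in cerebral cavernous malformation. The readthrough gene ENSG00000289027 reaches from KRIT1 into CYP51A1 on the minus strand, which these genes share, and does not include ANKIB1. KRIT1, on the minus strand, has its 5′ end at 92246166, and ANKIB1, on the other strand, starts at 92245974, so their 5′ ends overlap. Reads from this overlap cannot be told apart if strand was not used in the counting, and the strand setting is not given in the sources used here. KRIT1 had 394.9, 326.2 and 160.6 normalised counts in shJMJD1A-AGE and 261.4, 227.8 and 277.0 in shCtrl-AGEs. Its silenced libraries lay on both sides of the others, and it did not pass, at a log2 fold change of 0.17 (standard error 0.333, edgeR adjusted p = 0.714). ANKIB1, a ubiquitin ligase of the RING-between-RING class on the plus strand, was at -0.22 (standard error 0.0850) and missed the threshold, with an edgeR adjusted p of 0.0510. Against shCtrl-Normal, where 40% of genes passed, ANKIB1 in shJMJD1A-AGE did pass, at -0.35 (standard error 0.0833, edgeR adjusted p = 0.00512). KRIT1 did not pass there, at -0.06 (edgeR adjusted p = 0.878). Neither neighbour had a value near the -1.52 of CYP51A1, although a difference between genes was not tested.

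**Figure D4:**
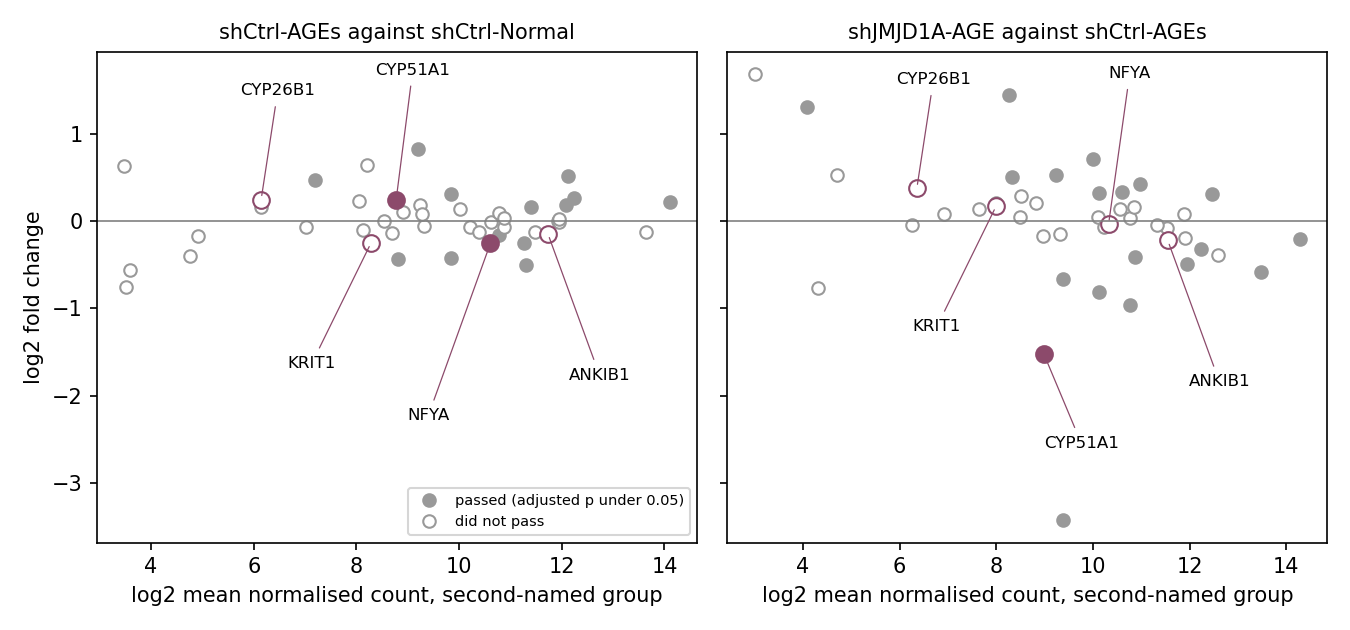
Log2 fold change (y axis) against log2 mean normalised count of the second-named group (x axis) for every gene tested, with AGEs treatment left and silencing right; filled points passed at an adjusted p under 0.05, and the purple points are the members, the neighbours of CYP51A1 and NFYA. CYP51A1 is at 0.24 on the left and -1.52 on the right, and CYP26B1 is open in both.

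The genes whose pattern was most like each member were found by the root mean square difference over the 9 libraries between log2 values centred on each gene's mean, among 44 other genes. For CYP51A1 they were KLHL13 at 0.38, DBNDD1 at 0.42 and PLXND1 at 0.49, where a gene that did not vary at all would be at 0.72. KLHL13, a cullin adaptor protein, was at 2527 ± 47.4 normalised counts in shCtrl-Normal, 1741 ± 103.2 in shCtrl-AGEs and 908.9 ± 86.6 in shJMJD1A-AGE (SD, n = 3 each). It fell with AGEs, unlike CYP51A1. DBNDD1 was at 915.3 ± 48.6, 1109 ± 15.4 and 644.2 ± 72.1 in the same order (SD, n = 3 each), the order of CYP51A1. PLXND1, a semaphorin receptor, was at 12692 ± 771.1, 11362 ± 878.0 and 7730 ± 463.0 (SD, n = 3 each).

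For CYP26B1 the closest were M6PR at 0.24, HS3ST1 at 0.24 and STPG1 at 0.25, against 0.34 for a gene that did not vary. M6PR, the cation-dependent receptor of mannose 6-phosphate, was at 4838 ± 450.8 in shCtrl-Normal, 5657 ± 243.7 in shCtrl-AGEs and 7161 ± 309.5 in shJMJD1A-AGE (normalised counts, SD, n = 3 each), the same order as CYP26B1 with less spread. HS3ST1, a heparan sulfate sulfotransferase, was at 70.4 ± 12.9, 76.6 ± 10.5 and 75.3 ± 20.1 (SD, n = 3 each). STPG1 was at 146.7 ± 12.6, 198.7 ± 14.8 and 222.9 ± 33.4 (SD, n = 3 each). DBNDD1 overlaps GAS8 and STPG1 overlaps NIPAL3, each on the other strand. NIPAL3, also among the genes analysed, was at 588.8 ± 24.0, 1018 ± 21.5 and 1701 ± 21.0 in the same order (SD, n = 3 each). Reads from such overlaps cannot be told apart if strand was not used in the counting. The root mean square differences use the same libraries as the comparisons and are a description.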

How the data were processed

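RNA of 9 HK-2 libraries was sequenced after poly(A) selection and preparation with the NEBNext Ultra kit. The authors' quality control used FastQC and MultiQC. Adapters were removed with Trim Galore, reads were aligned to GRCh38 by HISAT2 2.1.0, and featureCounts gave the reads per gene. The strand setting and annotation release are not given in the sources used here. The deposited values are these counts, not normalized, and they entered the tests unchanged.

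Groups were taken from the sample titles. The counts analysed cover 49 genes, with 67563 to 107036 reads per library, which are not library depths. Each pair of groups was compared with edgeR 4.0.16 in R 4.3.3: filterByExpr (minimum count 10, minimum total 15), TMM scaling, and robust quasi-likelihood F tests on the 3 libraries of each of the 2 groups, with Benjamini-Hochberg adjustment over all genes tested and a threshold of 0.05. This test pools spread over genes. In shCtrl-AGEs against shCtrl-Normal both members had 184 degrees of freedom, so their own spread weighed little. Each standard error was computed as |log2 fold change|/√F. Levels use TMM over all 9 libraries. TMM was computed from the genes analysed alone, so levels and fold changes are relative to these genes. Likeness used log2(normalised count + 1) of genes with a mean of at least 10, and the ratio within a library a pseudocount of 0.5. Symbols and coordinates are from GENCODE release 44 (GRCh38), and all 49 IDs matched. Copies were sought with BLAST 2.17.0. The test was checked on simulated data for shCtrl-AGEs against shCtrl-Normal only. These had 2-fold changes and the same spread beyond counting error for all genes. Smaller folds and the spread of shJMJD1A-AGE were not covered. Poisson intervals cover counting error only.

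The genes named are the members, listed pathway genes that were counted, counted genes within 1000 kb, and the 3 most alike for each member. The members and lists were chosen with earlier results of these data known. Alternatives were the other scalings and filters, a joint fit of the 3 groups, a replicate block, DESeq2 1.42.0, an exact permutation test and leaving out each library.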

Additional observations from a re-analysis of the deposited data

How the results depend on the processing

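No fold change of CYP51A1 or CYP26B1 changed direction under any of the 15 alternatives of its comparison. The rise of CYP51A1 with AGEs no longer passed with all 3 groups in one fit (log2 fold change 0.21), plain totals (0.18), DESeq2's Wald test (0.22), no filter (0.22) and the exact permutation test (0.24). With a library left out it lay between 0.19 and 0.30. In the permutation test, which cannot pass with 3 libraries a group, CYP51A1 after silencing was at -1.57 against shCtrl-AGEs and -1.31 against shCtrl-Normal. CYP26B1 against shCtrl-Normal passed with all groups in one fit (0.61) and lay between 0.43 and 0.81 with a library left out. The difference of the log2 ratio with AGEs lay between -0.19 and 0.14 with a library left out.

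The number of genes that passed was 15, 19 and 18 in the 3 comparisons, and 0 in each by the exact permutation test, which also had 0 at an unadjusted p under 0.05; DESeq2 gave 16, 22 and 21. With a library left out it lay between 11 and 19, 17 and 28, and 14 and 23. Plain totals gave 6 genes higher and 11 lower with AGEs, against 9 and 6.

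Replicate numbers were shared between groups, and it is not stated whether they pair the libraries. The correlation of same-numbered libraries lay between -0.43 and 0.31. That of differently numbered libraries lay between -0.68 and 0.72, so these correlations cannot settle pairing. With the number as a replicate block 16, 19 and 19 genes passed, and CYP51A1 was at 0.24, -1.56 and -1.30 and CYP26B1 at 0.26, 0.35 and 0.64, with no call changed. Of 18 best matches of a library in another group, 5 were to its own number.

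CYP26B1 had 60 to 136 reads per library, for which counting alone gives a coefficient of variation of 10.1% to 11.2% by group.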
